A study of Mus musculus with 24 samples.

Results

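The levels of 10 genes of the neuronal synapse were followed in the brain RNA of 24 mice. They were taken by gene name as 10 of the 54532 rows of the gene table: Syn1, Syp and Syt1 of synaptic vesicles, Snap25 and Stx1a of the release machinery, and Dlg4, Shank3, Homer1, Camk2a and Nrgn of the postsynaptic side. All 10 had fragments in every mouse and passed the filter on low values. The mice were male wild-type C57Bl6 animals of 8 to 12 weeks, in 4 groups of 6. Vehicle mice received 0.9% saline by osmotic minipump for 2 weeks, and mice infused with angiotensin II received 0.7 mg/kg/day by the same route. In the groups named vehicle + amnion epithelial cells and angiotensin II + amnion epithelial cells, 1000000 human amnion epithelial cells (stem-like cells from the inner membrane of the placenta) were injected into a tail vein after pump surgery, and the other groups received saline. Some mice died within minutes of the cell injection, so both cell-treated groups hold survivors. The RNA was from a whole brain hemisphere, and in such tissue fewer cells of a type and less RNA per cell cannot be told apart.

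At a chemical synapse, an action potential opens calcium channels in the nerve terminal, and calcium binding to synaptotagmin triggers the fusion of vesicles through the SNARE complex of syntaxin, SNAP-25 and synaptobrevin. On the other side, receptors are held in the postsynaptic density by layered scaffolds of PSD-95, SHANK and HOMER proteins, and calcium entering through NMDA receptors acts through calmodulin on the kinase CaMKII. Levels of these mRNAs and proteins are widely used as indices of synapse content in studies of cognitive decline.

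The label of the tissue was checked against 15 general neuronal genes. None of the 15 was at 0 in any group, and their summed FPKM (fragments per kilobase of gene length per 1000000 fragments) ranged from 1843 to 2252 over the 24 mice.

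Because base composition moved with the differences between libraries described next, the start of the coding sequence is shown for 3 members, from the GENCODE M21 transcripts of GRCm38, 5′ to 3′, with G and C in capitals and a and t in lower case. Nrgn (chromosome 9, 37544492 to 37552904, minus strand) has a coding sequence of only 237 bases, shown whole, of which 67.9% are G or C. The first 240 coding bases follow for Syt1 (chromosome 10, 108497650 to 109010982, minus strand) and Snap25 (chromosome 2, 136713453 to 136782428, plus strand). Over their whole coding sequences G and C made up 49.8% in Syt1 and 50.9% in Snap25.
Nrgn: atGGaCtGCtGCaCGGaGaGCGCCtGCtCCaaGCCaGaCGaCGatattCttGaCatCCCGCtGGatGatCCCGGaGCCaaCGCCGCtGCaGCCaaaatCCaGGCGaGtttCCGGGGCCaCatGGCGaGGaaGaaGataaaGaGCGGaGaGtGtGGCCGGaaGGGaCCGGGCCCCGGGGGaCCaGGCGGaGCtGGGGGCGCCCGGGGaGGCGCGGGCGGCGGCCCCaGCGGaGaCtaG
Syt1: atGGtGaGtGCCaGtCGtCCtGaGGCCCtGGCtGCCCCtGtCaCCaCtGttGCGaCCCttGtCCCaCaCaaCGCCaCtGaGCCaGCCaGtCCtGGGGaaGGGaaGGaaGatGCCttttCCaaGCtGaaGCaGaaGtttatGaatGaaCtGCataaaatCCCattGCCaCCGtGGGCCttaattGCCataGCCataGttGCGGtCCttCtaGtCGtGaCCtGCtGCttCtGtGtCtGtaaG
Snap25: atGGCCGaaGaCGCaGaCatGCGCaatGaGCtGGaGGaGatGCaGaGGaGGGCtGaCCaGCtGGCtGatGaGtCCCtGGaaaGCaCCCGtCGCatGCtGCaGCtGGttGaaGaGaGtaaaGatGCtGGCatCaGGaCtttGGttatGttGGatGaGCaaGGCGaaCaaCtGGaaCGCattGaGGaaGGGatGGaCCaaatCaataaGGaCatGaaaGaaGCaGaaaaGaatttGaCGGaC
Nrgn was read at higher levels, and Syt1 and Snap25 at lower levels, in the 6 libraries that stood apart. The stretches printed for Syt1 and Snap25 hold 54.2% and 51.25% G and C, where the median over whole coding sequences was 53.5%. Syp, Dlg4 and Stx1a, with 58.4%, 55.5% and 55.7% in their coding sequences, were also higher in the 6 libraries. Their log2 differences were 0.58, 0.57 and 0.56. The remaining members followed this pattern weakly or not at all. Shank3 and Syn1, with 64.6% and 60.7% in their coding sequences, had log2 differences of 0.09 and 0.11 between these libraries and the others. Camk2a, with 56.2%, had 0.04, and Homer1, with 44.0%, had -0.01.

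The number of fragments behind each FPKM value could be recovered, and the libraries held 16536449 to 25308700 fragments. Summed over all genes, FPKM was 338334 to 348597 in 6 libraries and 277116 to 298301 in the other 18. The 6 libraries of high total FPKM were replicates 5 and 6 of the vehicle mice, replicate 5 of the mice infused with angiotensin II, replicate 6 of the vehicle + amnion epithelial cells group, and replicates 5 and 6 of the angiotensin II + amnion epithelial cells group. The labels give no reason for this split. The 10 genes took 0.947% to 1.02% of the fragments in these 6 libraries and 0.842% to 0.927% in the other 18. Many of the members' differences between groups are therefore given also with the library set as a term in the fit. The range of their intervals is given with the 18 libraries alone too.

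The members covered a wide range of levels. Nrgn, which encodes the calmodulin-binding protein neurogranin of dendritic spines, had the highest level per gene length, 766 ± 206 FPKM (SD, n = 24), and ranked 20 among all genes. Snap25, the SNARE protein of the plasma membrane, followed at 288 ± 19.1 FPKM, and Camk2a, the alpha subunit of CaMKII, at 246 ± 13.5 FPKM. Syp, the vesicle membrane protein synaptophysin, stood at 208 ± 42.2 FPKM. Syn1, the phosphoprotein synapsin that tethers vesicles to actin, stood at 174 ± 9.68 FPKM. Lower levels were found for the calcium sensor Syt1 (97.0 ± 9.90 FPKM) and the plasma membrane SNARE Stx1a (74.3 ± 14.7 FPKM). The postsynaptic scaffolds came last, with Dlg4, which encodes PSD-95, at 62.7 ± 12.6 FPKM, Shank3 at 34.2 ± 1.91 FPKM and Homer1 at 7.0 ± 0.896 FPKM. Homer1 ranked 6321 among all genes. Its row covers the long scaffold forms and the short activity-induced form together.

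Each of the 9 neighbouring pairs in this order differed in log2 FPKM within mice (two-sided sign-flip permutation test of 100000 resamples, 24 mice, adjusted p over the 9 pairs of at most 0.0003). The smallest p that these resamples could give was 1e-05. The pairs were set by mean FPKM in these same mice, so the test shows only that differences recurred from mouse to mouse. Some pairs were not in the same order in every mouse. Camk2a exceeded Syp in 18 of 24 mice, Syt1 exceeded Stx1a in 18 of 24, Syp exceeded Syn1 in 22 of 24, and Snap25 exceeded Camk2a in 23 of 24. In the 18 libraries alone the order was the same and all 9 pairs again passed the test, with Camk2a above Syp in 18 of 18. In the 6 libraries of high total FPKM, mean Syp (277 FPKM) stood above mean Snap25 (260 FPKM) and Camk2a (251 FPKM), and mean Dlg4 (83.2 FPKM) above Syt1 (81.3 FPKM).

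The order also depended on the length used. The authors' gene lengths join all annotated exons, and they are longer than the longest protein-coding transcript for 9 of the 10 members: 6791 against 2116 bases for Snap25 and 13251 against 6326 bases for Dlg4. Nrgn had 1453 bases by both counts. Per kilobase of the longest coding transcript, a calculation added after the data had been seen, Snap25 came first at 926 ± 61.4 FPKM and Nrgn second at 766 ± 206 FPKM. Syp (417 ± 84.9 FPKM) then stood above Camk2a (370 ± 20.3 FPKM), Dlg4 (131 ± 26.4 FPKM) above Stx1a (91.6 ± 18.2 FPKM), and Syn1 and Syt1 could not be told apart (adjusted p = 0.0793 by the same permutation test).

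**Figure D1:**
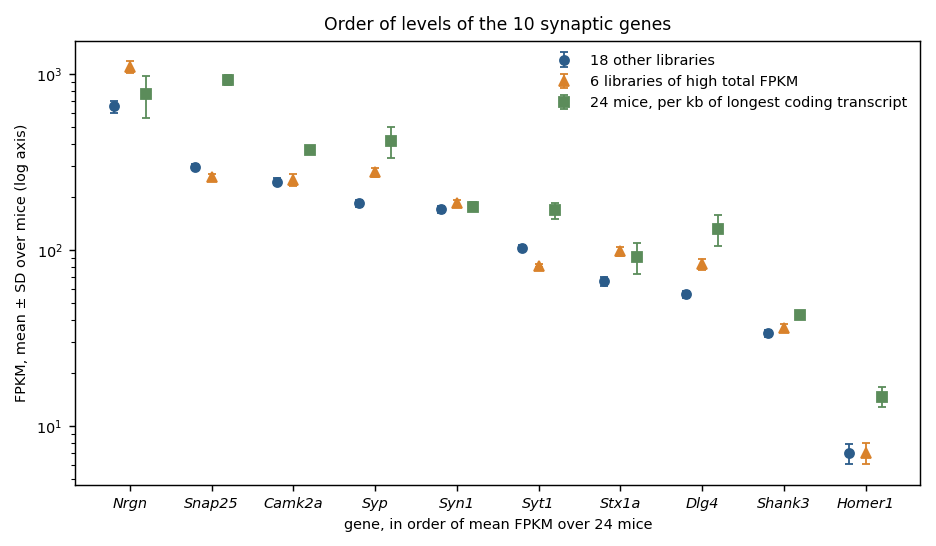
Mean FPKM of the 10 synaptic genes (log axis, bars ± SD over mice), in order of the mean over all 24 mice, for the 18 other libraries, for the 6 libraries of high total FPKM, and for 24 mice per kilobase of the longest coding transcript. Nrgn was at 655 FPKM in the 18 libraries and 1100 in the 6, while Homer1 was at 7.0 and 6.99.

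The first question was whether angiotensin II alone was accompanied by a change in synaptic mRNA. None of the 10 genes passed an adjusted p under 0.05 over the 27286 genes tested (limma on log2(FPKM + 0.1)), and 0 of 10 were at an unadjusted p under 0.05, where 2.21% of all genes were. No gene of the whole table passed the adjusted threshold in this comparison. The vehicle and angiotensin II groups overlapped for all 10 members, while 0.0623% of all genes did not overlap.

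Of the vesicle genes, Syp ranged in vehicle mice from 178 to 291 FPKM with a median of 189, and in mice infused with angiotensin II from 177 to 253 with a median of 187. The group means of 218 ± 52.8 and 196 ± 28.4 FPKM (SD, n = 6 each) differed by -0.13 on the log2 scale (SE 0.16, exact permutation p = 0.364). With the library set as a term the Syp difference was -0.03 (SE 0.04). Syt1 was at 79.8 to 106 FPKM in vehicle mice (median 100.3) and at 84.8 to 105 (median 101) with angiotensin II. Its log2 difference was 0.06 (SE 0.09), and 0.00 (SE 0.03) with the set as a term. Syn1 differed by -0.01 (SE 0.06), from 175 ± 10.3 FPKM in vehicle mice to 173 ± 8.15 FPKM. With the set as a term the Syn1 difference was 0.01 (SE 0.04). The ranges of all 3 vesicle genes lay over each other in these groups.

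In the release machinery, Snap25 was at 245 to 305 FPKM (median 290) in vehicle mice and at 277 to 310 (median 302) in mice infused with angiotensin II, with 5 of 6 infused mice above the vehicle mean. The log2 difference of 0.08 (SE 0.07) did not pass the test (exact permutation p = 0.234). Both lowest vehicle values belonged to libraries of high total FPKM, and with the set as a term the Snap25 difference was 0.05 (SE 0.03). Stx1a stood at 76.1 ± 18.6 FPKM in vehicle mice and 71.6 ± 9.66 FPKM with angiotensin II. Its log2 difference was -0.07 (SE 0.15) without the set and 0.03 (SE 0.05) with it.

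Among the scaffolds, Shank3, which links PSD-95 complexes to HOMER and actin, had the lowest p of the members without the set as a term. It was at 32.6 to 37.8 FPKM (median 34.9) in vehicle mice and 30.3 to 36.4 (median 32.9) in mice infused with angiotensin II, so that 5 of 6 infused mice lay below the vehicle mean but the ranges overlapped widely. The log2 difference was -0.07 (SE 0.05, exact permutation p = 0.165), and the limma p was 0.169 before and 0.994 after adjustment over all genes. Dlg4 went from 65.7 ± 16.2 to 58.9 ± 7.87 FPKM, a log2 difference of -0.13 (SE 0.15), which was -0.04 (SE 0.05) with the set as a term. Homer1 was at 6.34 to 8.13 FPKM (median 7.29) in vehicle mice and 6.14 to 8.58 (median 6.94) with angiotensin II. Its difference of -0.04 had an SE of 0.11 in the fit of groups alone and 0.11 also with the set.

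Camk2a was at 245 ± 18.8 FPKM in vehicle mice and 248 ± 13.1 FPKM in those infused with angiotensin II, and the log2 difference was 0.02 (SE 0.06). With the set as a term that difference was 0.03 (SE 0.05). Nrgn had the largest difference in size of the 10 members, and also the widest spread. Vehicle mice ranged from 611 to 1156 FPKM (median 687) and mice infused with angiotensin II from 609 to 984 (median 667). The 2 highest vehicle values, 1080 and 1156 FPKM, and the highest value with angiotensin II, 984 FPKM, were the libraries of high total FPKM. The Nrgn log2 difference was -0.16 (SE 0.21, exact permutation p = 0.374) over all mice and -0.03 (SE 0.07) with the set as a term. The 95% interval of the fold accordingly narrowed from 0.663 to 1.21 without the term to 0.883 to 1.08 with it.

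**Figure D2:**
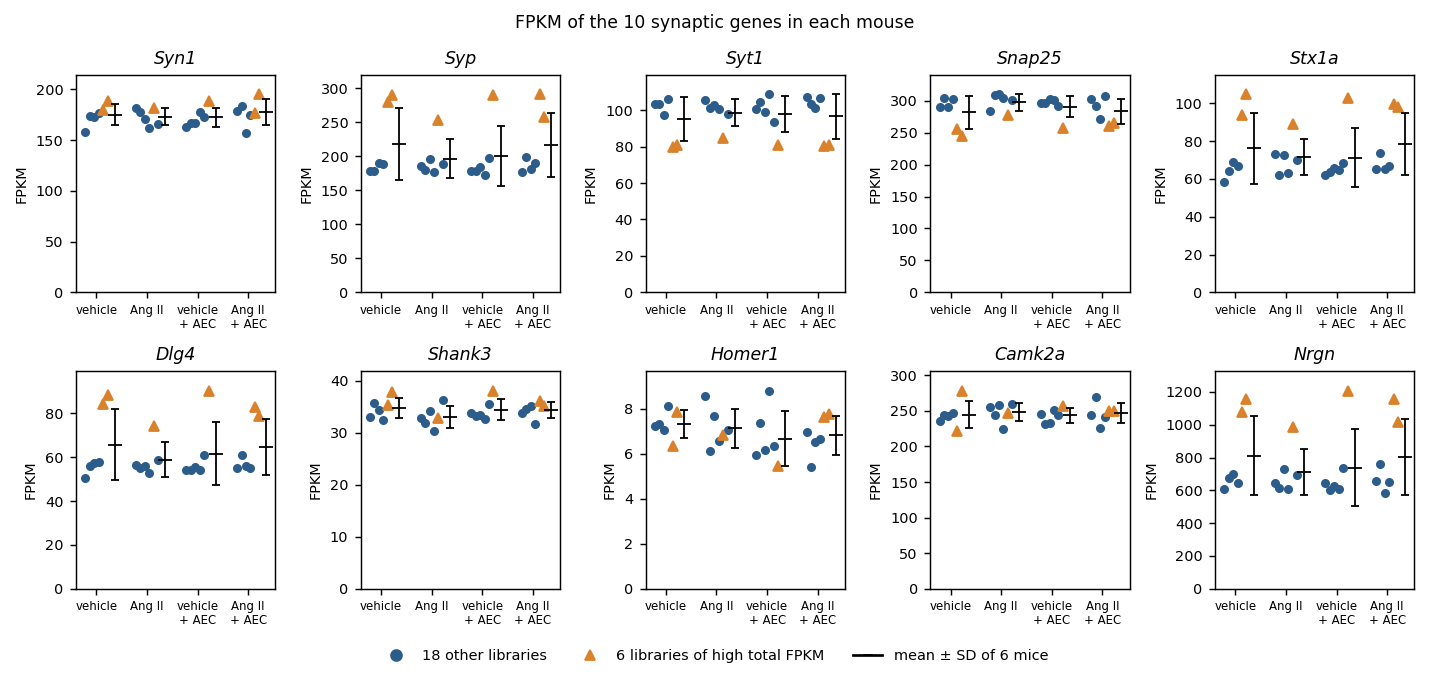
FPKM of the 10 synaptic genes in each of the 24 mice, 1 panel per gene with its own axis from 0, by group (Ang II, angiotensin II; AEC, amnion epithelial cells). Triangles are the 6 libraries of high total FPKM, circles the other 18, and black bars the mean ± SD of 6 mice. The triangles lie above all circles for Syp, Stx1a, Dlg4 and Nrgn and below all circles for Syt1, while the 4 groups overlap for every gene.

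The next comparison asked whether amnion epithelial cells were accompanied by a change in mice infused with angiotensin II. Again 0 of 10 members were at an unadjusted p under 0.05, where 2.54% of all genes were, and none passed the adjusted threshold, nor did any gene of the table. Both groups overlapped for all 10 genes, and 0.099% of all genes did not overlap. Snap25 had the lowest exact p. It was at 297 ± 13.5 FPKM with angiotensin II and 283.5 ± 19.99 FPKM when the cells were added, and the log2 difference was -0.07 (SE 0.07, exact permutation p = 0.18), and 4 of 6 cell-treated mice lay below the mean of the mice infused with angiotensin II alone. Nrgn went from a median of 667 FPKM to 709 FPKM, with highest values of 984 and 1159, and its log2 difference was 0.15 (SE 0.21). With the set as a term that difference was 0.02 (SE 0.07), and for Syp it went from 0.12 (SE 0.16) to 0.02 (SE 0.04), for Dlg4 from 0.12 (SE 0.15) to 0.03 (SE 0.05). The angiotensin II group holds 1 library of high total FPKM and the angiotensin II + amnion epithelial cells group holds 2. Shank3 had means of 33.1 ± 2.07 and 34.4 ± 1.55 FPKM in the same order, which did not pass the test (log2 difference 0.06, SE 0.05, exact permutation p = 0.227). These mice infused with angiotensin II alone also serve in the comparison above, so the opposite signs of Shank3 in the 2 comparisons are not independent.

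In vehicle mice, amnion epithelial cells were compared with saline injection. None of the 10 members passed the adjusted threshold, 0 of 10 were at an unadjusted p under 0.05 against 2.41% of all genes, and all 10 overlapped between groups, against 0.0623% of all genes that did not. Homer1, which binds metabotropic glutamate receptors and SHANK, had the largest log2 difference in size, -0.15 (SE 0.11, exact permutation p = 0.221), and also -0.15 with the set as a term. It was at 6.34 to 8.13 FPKM (median 7.29) in vehicle mice and 5.48 to 8.81 (median 6.25) in vehicle + amnion epithelial cells mice, with 4 of 6 of the latter below the vehicle mean. The highest Homer1 value of all 24 mice, 8.81 FPKM, was replicate 4 of that group. Without it the difference was -0.23 with an unadjusted limma p of 0.029, where 590 of 27093 genes were under 0.05. Nrgn medians were 687 and 638 FPKM, and its difference was -0.13 (SE 0.21) over all mice and -0.01 (SE 0.07) with the set as a term. Camk2a (244 ± 10.2 FPKM against 245 ± 18.8) and Shank3 (34.5 ± 2.06 against 34.8 ± 1.94) differed by less than 0.05 in size on the log2 scale.

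Among mice given amnion epithelial cells, those infused with angiotensin II were compared with those that received vehicle. All members again missed both thresholds (0 of 10 at an unadjusted p under 0.05, against 2.66% of all genes), and all 10 overlapped, against 0.0843% of all genes that did not. Stx1a had the lowest exact p, with 78.2 ± 16.4 against 71.1 ± 15.7 FPKM (log2 difference 0.14, SE 0.15, exact permutation p = 0.346), and 0.04 (SE 0.05) with the set as a term. Shank3 stood at 34.4 ± 1.55 and 34.5 ± 2.06 FPKM in these groups. The interaction, which asks whether the cells' effect differed between angiotensin II and vehicle mice, gave 0 of 10 members at an unadjusted p under 0.05 against 2.54% of all genes. Its log2 estimates ran from -0.12 for Snap25 to 0.28 (SE 0.30) for Nrgn, and the Nrgn estimate was 0.04 (SE 0.10) with the set as a term.

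Over the 4 group comparisons, the 40 member differences had exact permutation p from 0.165 to 0.998, where a 6 against 6 design could reach 0.00216, and adjusted p of at least 0.994 by limma. Their 95% intervals excluded folds below 0.663 and above 1.498. With the library set as a term the intervals lay between 0.776 and 1.198 for all 10 members, and between 0.883 and 1.124 without Homer1. With the 18 libraries alone they lay between 0.757 and 1.15, and between 0.871 and 1.15 without Homer1. Counting error was small beside this: it came to 2.47% of the mean for Homer1 (median of 1609 fragments per mouse), 1.61% for Stx1a and at most 1.28% for the other members. In a fit of the 13649 genes of a mean of 1 FPKM or more, 93 to 136 were at an unadjusted limma p under 0.05 per comparison. Those 13649 genes include all 10 members, of which 0 were under 0.05.

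**Figure D3:**
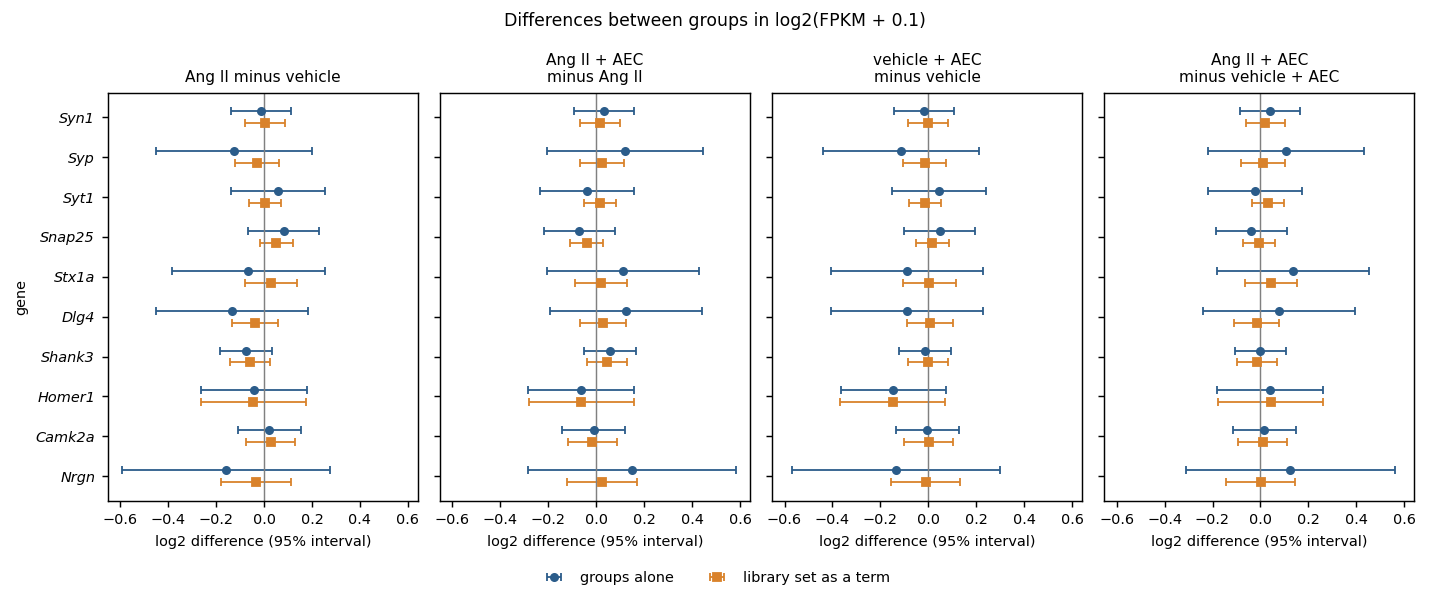
Log2 difference in FPKM + 0.1 with its 95% interval for the 10 synaptic genes in 4 comparisons of 6 against 6 mice. Circles are from the fit of groups alone and squares from the fit with the library set as a term. All intervals hold 0, and that of Nrgn for angiotensin II against vehicle shrinks from -0.59 to 0.28 down to -0.18 to 0.11.

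Other genes of the synapse were described in the same way from a presynaptic list of 51 genes and a postsynaptic list of 50, all tested. In the fit of groups alone 0 of 51 and 0 of 50 were at an unadjusted p under 0.05 in each of the 4 comparisons and in the interaction. For angiotensin II against vehicle the median log2 difference was 0.03 in both lists, beside 0.02 over all genes and -0.05 over the 10 members. With the set as a term, the list medians for that comparison were 0.00 and -0.01, and 1 gene of each list was at an unadjusted p under 0.05, where 3.46% of all genes were. These were Synpr, a vesicle protein related to synaptophysin (log2 difference -0.13, SE 0.06), and Anks1b, a postsynaptic scaffold (-0.09, SE 0.04). For amnion epithelial cells in vehicle mice, Pcp4, a calmodulin regulator of the same IQ motif family as Nrgn, had a log2 difference of -0.23 (SE 0.06, unadjusted p = 0.00138 and adjusted p = 0.9999 by limma) with the set as a term, where 3.54% of all genes were under 0.05. Iqsec1, a postsynaptic exchange factor for ARF6, was at -0.06 (SE 0.03) for angiotensin II among cell-treated mice, where 4.01% of all genes were under 0.05 with the set as a term. Tanc1, a scaffold that binds PSD-95, was at -0.16 (SE 0.08) for the interaction, where 3.41% of all genes were under 0.05. For amnion epithelial cells on top of angiotensin II, 0 of 51 and 0 of 50 were under 0.05 with the set as a term, where 3.9% of all genes were. With the 18 libraries alone, in the same comparison, where 4.52% of all genes were under 0.05, 2 of 51 presynaptic genes were (Synpr at 0.17, SE 0.06, and Syt2 at -0.09, SE 0.04) and 3 of 50 postsynaptic genes were (Anks1b at 0.11, Kalrn at 0.11 and Dlgap1 at 0.11, SE 0.05 each). In those libraries there was 1 of 51 (Synpr, -0.18) and 0 of 50 for angiotensin II against vehicle (3.83% of all genes), 1 and 1 for the cells in vehicle mice (Doc2a at 0.19 and Pcp4 at -0.22, with 4.16% of all genes), 0 and 1 for angiotensin II among cell-treated mice (Iqsec1 at -0.08, with 4.21%), and 1 and 2 for the interaction (Synpr at 0.22, Anks1b at 0.14 and Tanc1 at -0.19, with 4.15%). The 10 members had 0 under 0.05 in each of these fits, and no gene of either list passed the adjusted threshold. Synpr and Anks1b had opposite signs in 2 comparisons with a group in common, that given angiotensin II without cells. Genes found only in the 18 libraries were named after their values were seen. None of these genes was at an unadjusted p under 0.05 in the fit of groups alone.

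Because a form of Homer1 is induced by neuronal activity, 11 immediate early genes were set beside it. None of the 11 was at an unadjusted p under 0.05 in the fit of groups alone. Their median log2 differences moved with the libraries used. For amnion epithelial cells on top of angiotensin II the median was 0.24 over all mice and 0.07 in the 18 libraries alone, where Homer1 was at -0.06 over all mice. For the cells in vehicle mice it was 0.17 and 0.45, with 1 of 11 (Egr4, log2 difference 0.34, SE 0.14) at an unadjusted p under 0.05 in the 18 libraries, where 4.16% of all genes were, and Homer1 was at -0.15 over all mice. For angiotensin II against vehicle the median was -0.13 over all mice but 0.24 in the 18 libraries alone. Over the 24 mice, after removal of group and library set means, Pearson r of Homer1 with the 11 genes ran from -0.24 with Dusp1 to 0.34 with Fosb, with a median of -0.07. Egr3, an immediate early gene outside these 11, had r = 0.83 with Homer1, the highest of 13648 genes compared. The sum of the 11 genes ran from 97.4 to 299 FPKM over the 24 mice.

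The largest differences in the members' data were those between library sets. These are given as a description, since the set was defined from the libraries. Nrgn stood at 984 to 1207 FPKM in the 6 libraries and at 583 to 761 in the other 18, Syp at 253 to 291 against 173 to 199, Stx1a at 88.9 to 105 against 58.4 to 73.7, and Dlg4 at 74.4 to 90.3 against 50.7 to 61.2. For these 4 genes all 6 libraries lay above all 18, as they did for 11.2% of all genes. Syt1 lay below in all, at 79.8 to 84.8 FPKM against 93.4 to 109, as 16.3% of all genes did. In all, 5 of 10 members did not overlap, beside 27.5% of all genes. These shares are over the 27286 genes tested. Of those, 13649 had a mean of 1 FPKM or more, as all 10 members had, and the shares among them were not counted. The other 5 members overlapped between sets, Snap25 by a narrow margin with 245 to 277 FPKM against 271 to 310.

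With the group as a term, the log2 difference between sets was 0.74 (SE 0.06) for Nrgn, 0.58 (SE 0.04) for Syp, 0.57 (SE 0.04) for Dlg4 and 0.56 (SE 0.04) for Stx1a. It was 0.11 (SE 0.03) for Syn1, 0.09 (SE 0.03) for Shank3, -0.19 (SE 0.03) for Snap25 and -0.33 (SE 0.03) for Syt1. Camk2a (0.04, SE 0.04) and Homer1 (-0.01, SE 0.09) had 95% intervals that held 0, and their signs changed with the scaling of the libraries, to 0.10 and 0.05 with median ratio scaling and -0.01 and -0.06 with voom on the recovered fragments. The median over all genes was -0.07 in the first of these fits, -0.04 with median ratio scaling and -0.18 with voom, and the signs of the other 8 members were the same in all 3 fits. With median ratio scaling the interval of Camk2a was 0.01 to 0.19 and no longer held 0, and with voom that of Shank3 was -0.02 to 0.10 and held it, while that of Syn1 began at 0.00. Genes of the same complex thus differed in direction, with Stx1a at a 1.48-fold and Snap25 at a 0.879-fold level in the 6 libraries.

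Lists of other genes moved with the set as well, and their sums were higher in the 6 libraries for most of them. The set was defined by a higher FPKM summed over all genes, so higher list sums are in part built in. That total was 338334 to 348597 FPKM in the 6 libraries and 277116 to 298301 in the other 18. The summed level of the 15 general neuronal genes was 2119 to 2252 FPKM in the 6 libraries and 1843 to 1991 in the other 18. The 51 presynaptic genes summed to 4712 to 4988 FPKM against 3960 to 4270 and the 50 postsynaptic genes to 3070 to 3259 against 2770 to 3003. A sum follows the few genes of high level: gene by gene, the presynaptic list had a median set difference of -0.19 with 23 of 51 above 0, and the postsynaptic list -0.34 with 21 of 50 above 0. Of the markers of other cell types, 5 genes of red blood cells summed to 123 to 204 FPKM against 32.9 to 189, with all 5 above 0 (median 1.22). The 8 oligodendrocyte genes summed to 1506 to 1823 FPKM against 1220 to 1486, with 6 of 8 above 0 (median 0.40). The 8 microglial genes summed to 194 to 215 FPKM against 138 to 167, with 5 of 8 above 0 (median 0.41, lowest -0.43). These 3 lists differed in that red blood cell genes overlapped between sets and those of oligodendrocytes and microglia did not. The 6 choroid plexus genes summed to 888 to 1184 FPKM against 405 to 840, with 4 of 6 above 0 (median 0.42, lowest -0.56). The 8 astrocyte genes summed to 884 to 977 FPKM against 769 to 852, with 4 of 8 above 0 (median 0.01), and the 7 endothelial genes to 118 to 140 against 79.6 to 104, with 3 of 7 above 0 (median -0.06). Members of each of these lists other than that of red blood cells thus lay on both sides of 0. The 8 forebrain excitatory genes summed to 432 to 501 FPKM against 331 to 393, with 5 of 8 above 0 (median 0.14, lowest -0.61). The 9 genes of thalamus and hindbrain summed to 32.5 to 37.9 against 41.3 to 48.5. Of these, 4 of 9 were above 0 (median -0.18, highest 0.47). The 8 striatal genes summed to 377 to 469 FPKM against 286 to 361, with 5 of 8 above 0 (median 0.23). The 8 cerebellar genes overlapped between sets, at 214 to 290 FPKM against 152 to 268, with 3 of 8 above 0 (median -0.24). No gene of these lists was at 0 in all libraries of either set. The part of cell makeup in the differences between sets was not tested.

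Of the variance of log2 FPKM over the 24 mice, the library set took 88.7% for Syp, 88.0% for Syt1, 87.6% for Dlg4, 85.9% for Nrgn, 85.3% for Stx1a and 67.4% for Snap25, beside a median of 65.3% over 13649 genes with a mean of 1 FPKM or more. For Homer1 it took 0.0838% and for Camk2a 3.86%. The 4 groups took 1.79% (Camk2a) to 13.0% (Shank3) of the variance, beside a median of 5.11%. What was left after both, as a residual SD on the log2 scale, was 0.05 for Snap25 and Syt1 and 0.19 for Homer1. Snap25 and Syt1 were thereby less variable than all but 2.54% and 3.64% of those genes, and Homer1 was more variable than 80.7% of them.

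Base composition and transcript length moved with the difference between sets. Over 12054 genes with a mean of 1 FPKM or more and an annotated protein-coding transcript, Pearson r across genes of the set difference was 0.47 with the G and C content of the longest such transcript and -0.59 with the logarithm of its length. These genes share libraries and are not independent replicates. Split at the median G and C content of 50.8% and the median length of 3182 bases, GC-rich short genes had a median log2 difference of 0.41 (3618 genes), and AT-rich long genes had -0.50 (3618 genes). The mixed classes were at -0.03 and -0.01. Syp, Stx1a and Nrgn belong to the GC-rich short class, with 56.6%, 58.5% and 58.6% G and C, and had differences of 0.56 to 0.74. Syn1, Shank3 and Camk2a are GC-rich and long, with differences of 0.04 to 0.11. Syt1 is AT-rich and long, with 45.8% in 4820 bases, and Snap25 is AT-rich and short, with 43.4% in 2116 bases.

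Dlg4 and Homer1 departed from their class. Dlg4 is AT-rich and long by its longest coding transcript (46.8% of 6326 bases), yet its set difference was 0.57, in a class of which 6.52% of genes were above 0. Its coding sequence alone had 55.5% G and C, beside a median of 53.5% over the 12054 genes. Over those genes, Pearson r of the set difference with coding G and C content was 0.38. Homer1, at 36.9% G and C among the lowest 0.548% of these genes, differed by -0.01. The part of base composition and length in the differences between sets was not tested.

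**Figure D4:**
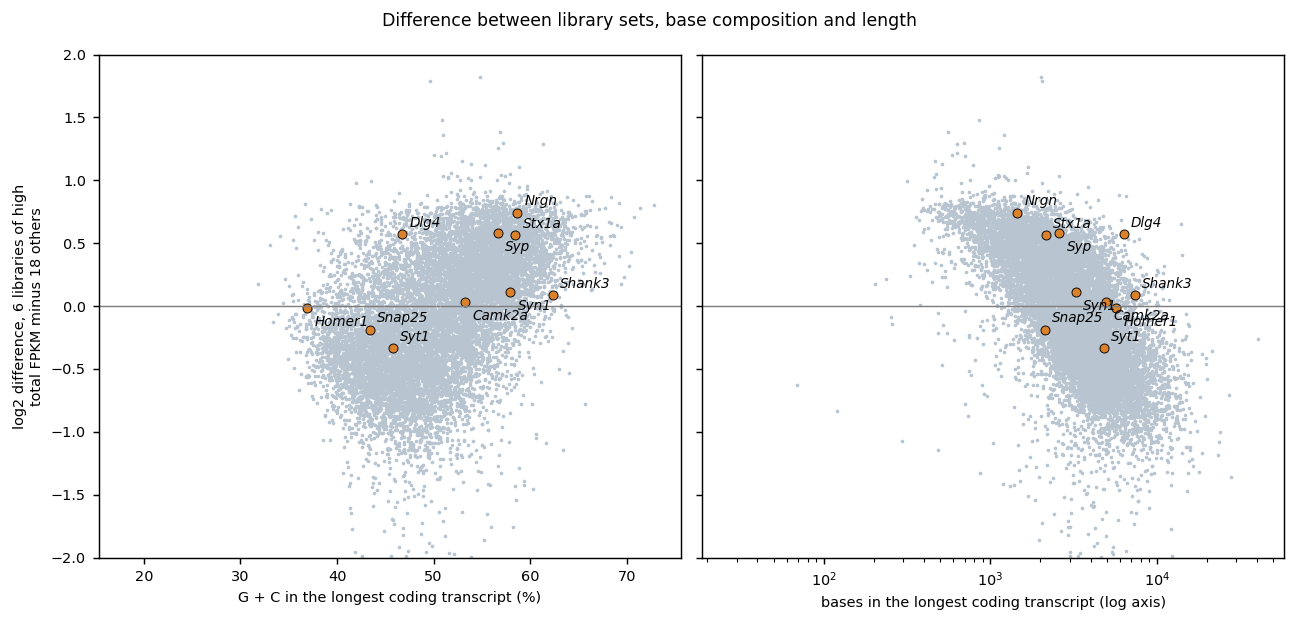
Log2 difference between the 6 libraries of high total FPKM and the other 18, with group as a term, against the G and C content (left) and the length (right, log axis) of the longest protein-coding transcript. Grey points are 12054 genes, of which 69 lie outside the plotted range, and orange points are the 10 synaptic genes. Nrgn, Syp and Stx1a lie at the top among GC-rich short genes, Dlg4 at 0.57 stands above its neighbours in length, and Syt1 is the lowest of the 10 at -0.33.

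The members also varied together within the library sets. After removal of group means, Nrgn, Syp, Dlg4 and Stx1a had pairwise Pearson r of 0.98 to 0.99 over the 24 mice. With the means of the library sets removed too, the 6 pairs were at 0.77 to 0.84, and over the 18 other libraries alone at 0.74 to 0.81. Syt1, in contrast, had r of -0.45 with Syp, -0.44 with Dlg4 and -0.40 with Nrgn after removal of both means. Over all 45 pairs, r ran from -0.49 for Syt1 with Shank3 to 0.84 for Stx1a with Dlg4, with a median of 0.21. These points share libraries, depth and base composition. A summary of the last was made for each library as the median log2 level of GC-rich short genes minus that of AT-rich long genes, which was 1.59 to 1.79 in the 6 libraries and 0.67 to 1.02 in the other 18. Over the 18 libraries alone, with group means removed, r with this summary was 0.92 for Syp, 0.82 for Dlg4, 0.78 for Nrgn, 0.73 for Stx1a and -0.71 for Syt1, and for the other members it was 0.58 for Shank3, 0.39 for Camk2a, 0.20 for Syn1, -0.13 for Snap25 and -0.37 for Homer1. Its part in the correlations between members was not tested.

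**Figure D5:**
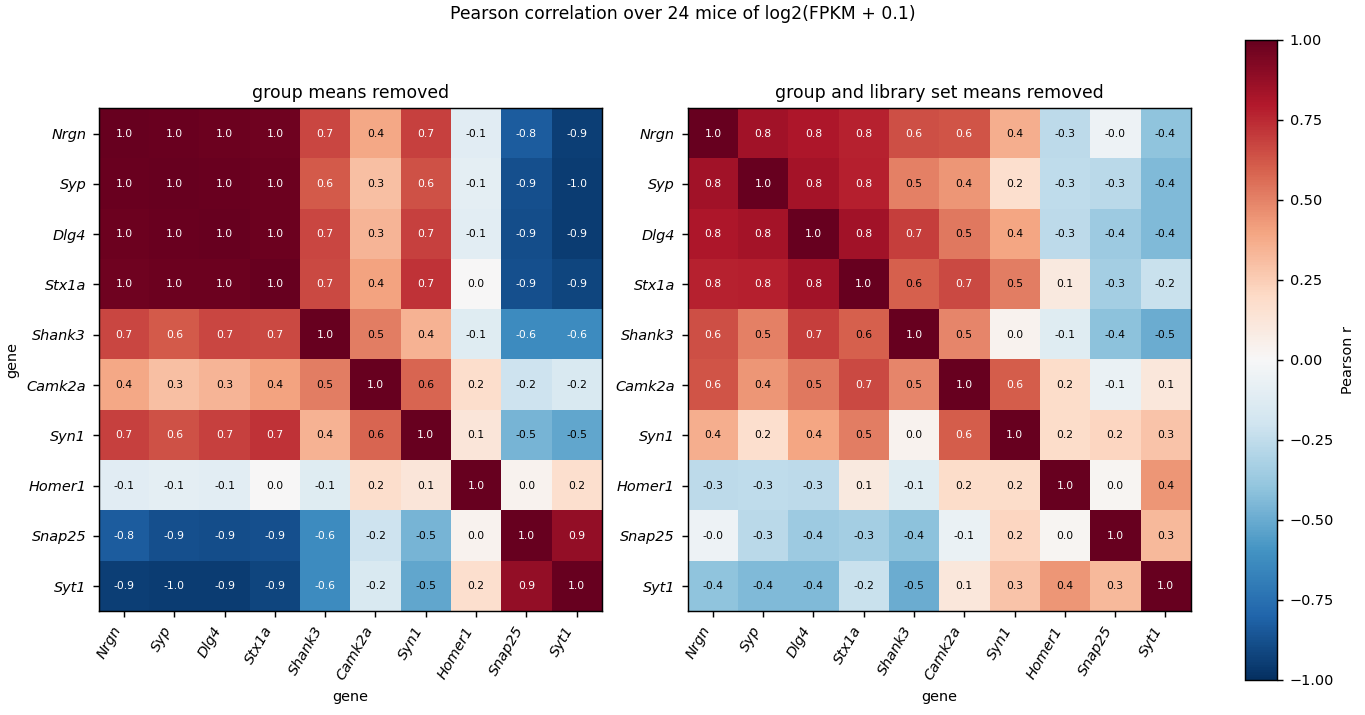
Pearson r over 24 mice of log2(FPKM + 0.1) for each pair of the 10 synaptic genes, after removal of group means (left) and of group and library set means (right), on a colour scale from -1 to 1. Nrgn, Syp, Dlg4 and Stx1a form a block at 0.98 to 0.99 on the left and 0.77 to 0.84 on the right, and Syt1 and Snap25 are negative with that block on the left.

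The genes most like each member were searched among 13648 others with a mean of 1 FPKM or more, by Pearson r over the 24 mice after removal of group and library set means. For Camk2a they were Ptk2b, a calcium-activated tyrosine kinase of forebrain neurons (r = 0.90), Nell2 (0.90) and Adcy5 (0.90), an adenylyl cyclase abundant in striatum. For Syt1 they were Kcnv1, Rasgrp1 and Nlgn1, the last a postsynaptic adhesion protein (r = 0.89 to 0.90). For Syp they were Mlf2, Calm3, a calmodulin gene, and Itm2c (r = 0.92 to 0.93). Prkar1b, a regulatory subunit of protein kinase A in brain, was the first for Stx1a (0.92) and the second for Dlg4 (0.90). Nrgn was nearest to Kctd17, Rasl10b and Hpca, which encodes the calcium sensor hippocalcin (r = 0.90 each). Homer1 was nearest to Egr3, an immediate early transcription factor (0.83), then Cobl (0.83) and Trim9 (0.80). Of the other members, 3 were among the 100 genes most like Stx1a, 2 each for Syp, Dlg4 and Nrgn, 1 each for Syn1 and Shank3, and none for Syt1, Snap25, Homer1 and Camk2a.

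Some members share bases with other annotated genes. Syn1 overlaps Timp1 on the opposite strand by 4570 bases, and Timp1, an inhibitor of metalloproteinases, was at 0.252 to 1.80 FPKM where Syn1 was at 157 to 195. Syp overlaps the antisense gene Gm14703 by 2151 bases (0.996 to 2.18 FPKM), and Shank3 overlaps Gm15609 by 3582 bases (0.318 to 0.909 FPKM). These overlaps are of whole gene spans, introns included, and bases shared by exons were not counted. For Syn1 the overlap is longer than its counted gene length of 3299 bases. The use of strand in the counting is not given in the sources used here, so reads from any shared exon bases cannot be told apart.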

How the data were processed

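RNA of a brain hemisphere from 24 mice was poly-T selected and sequenced. Using the Ensembl mouse genome and annotation, the authors computed and deposited 1 table of FPKM with gene lengths and GRCm38 coordinates. The submitters' processing notes and the paper's methods name DESeq 1.10.1 for the authors' own tests; the aligner, the counter and the use of strand are not given in the sources used here. Groups came from the sample labels, and mice are the replicates.

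FPKM multiplied by gene length gave whole numbers of fragments for 100% of values (tolerance 0.02 of a fragment). No 2 libraries of a group agreed within sampling noise. Differences were tested with limma 3.58.1 in R 4.3.3 on log2(FPKM + 0.1), which understates changes of low genes, with 4 group means in 1 fit, eBayes with a trend, and Benjamini-Hochberg adjustment over 27286 genes above 0 in at least 6 mice. For single members, 6 against 6 mice were compared by exact permutation (two-sided). The fit was tested on simulated data. The library set was split at the largest gap in total FPKM. The alternatives were pseudocounts of 1 and 0.01, 2 other filters, the compared groups alone, the replicate number as a block, median ratio scaling, voom on recovered fragments, array weights, the library set as a term, the 18 other libraries alone, and each mouse left out. Sequences, G and C content and overlaps came from GENCODE M21, in which all 10 members have the coordinates of the deposited table. Python 3.11.15 with numpy 2.4.6 and scipy 1.17.1 did the rest.

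All 10 members were named. Of the synaptic lists, genes at an unadjusted p under 0.05 could be named, at most 4 in each list and comparison, and for likeness the 3 genes with the highest r. The members and lists were chosen with earlier results of these data known.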

Additional observations from a re-analysis of the deposited data

Results flagged for a closer look

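In 8 of the 40 combinations of a member and a group, 1 mouse lay far from the other 5, by the ratio of its gap to the group's range (critical value 0.625, which chance passes in about 1 group of 20). All 8 were libraries of high total FPKM that were the only such library in their group. In the mice infused with angiotensin II it was replicate 5, with Syp at 253 FPKM (next 196), Dlg4 at 74.4 (next 58.8) and Nrgn at 984 (next 732). In the vehicle + amnion epithelial cells group it was replicate 6, with Syp at 289 FPKM (next 197), Stx1a at 103 (next 68.2), Dlg4 at 90.3 (next 61.2), Nrgn at 1207 (next 735), and Snap25 below the others at 258 (next 291). The share of all genes flagged by this rule was not counted. Between the library sets, 27.5% of all genes did not overlap. The rule looks at 1 mouse at a time, so it can miss such libraries in a group that holds 2 of them.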

How the results depend on the processing

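Under the alternatives, the count of members at an unadjusted p under 0.05 stayed at 0 in all 5 contrasts with 2 exceptions, and no member passed an adjusted p under 0.05. A block on the replicate number gave 1 for angiotensin II against vehicle (Shank3, log2 difference -0.07), where 950 of 27286 genes were under 0.05. Nothing in the labels ties a number to a shared litter, batch or day, and deviations from group means correlated at over 0.1 in 28 of 36 same-numbered pairs (median 0.35, range -0.22 to 0.80) and in 88 of 180 pairs of different number and group (median 0.07, range -0.69 to 0.81). The pairing was not taken as given, and 7 of 24 mice were closest to a mouse of their own number. Every same-numbered pair with r below 0 set a library of high total FPKM against a library outside that set. These correlations thus followed the library set, and they cannot decide whether the numbers mark a pairing. Leaving out each mouse in turn gave 0 to 1 members for amnion epithelial cells in vehicle mice (1, Homer1, without vehicle + amnion epithelial cells replicate 4) and 0 in the other contrasts. Without that mouse, 590 of 27093 genes were at an unadjusted p under 0.05 for amnion epithelial cells in vehicle mice. Of 1740 member differences under alternatives, all moved by less than the SD between mice of a group and 78 changed sign, none of them called. That SD holds the spread between library sets, so the margin is wide and does not show that the differences were stable. Nrgn for angiotensin II against vehicle stayed within it while going from -0.16 to -0.03 with the set as a term. Counts over all genes at an unadjusted p under 0.05 were 604 to 725 of 27286 as reported. They were 93 to 136 of the 13649 genes of a mean of 1 FPKM or more, which include all 10 members. With array weights they were 1254 to 1331 in the 4 group comparisons, in the 18 libraries alone 1009 to 1192, and up to 1416 with the block. At most 1 gene passed the adjusted threshold. The order of levels kept 9 passing pairs in the 18 libraries and with median ratio scaling, and had 8 with the length of the longest coding transcript. Members that did not overlap between library sets numbered 5, beside 27.5% of all genes, and 6 with median ratio scaling or recovered fragments scaled to library totals. The share over all genes was not counted under those scalings. Counting error was at most 2.47% of a member's mean.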
